A study of Saccharomyces cerevisiae with 2 samples.

Results

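The core and the outer plaque of the spindle pole body were represented by 10 of the 6592 named genes in the table, chosen by name. They were MPC54 (YOR177C), SPO21 (YOL091W), SPO74 (YGL170C) and ADY4 (YLR227C) of the meiosis-specific outer plaque, CNM67 (YNL225C) and NUD1 (YOR373W) of the outer plaque in either form, SPC72 (YAL047C) of the mitotic outer plaque, and SPC42 (YKL042W), SPC29 (YPL124W) and SFI1 (YLL003W) listed with the core. SFI1 is known as a protein of the half-bridge, the appendage on which a new pole body is built, and is described here under that role.

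The spindle pole body is the microtubule-organising centre of budding yeast, a layered structure held in the nuclear envelope. A central core crosses the envelope, an inner plaque anchors the microtubules of the spindle, and an outer plaque faces the cytoplasm. In mitotic cells the outer plaque anchors cytoplasmic microtubules. In the second meiotic division it is rebuilt from meiosis-specific proteins into the platform on which the prospore membrane, the future plasma membrane of the spore, begins to form.

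Ribosome footprints, the stretches of mRNA covered by translating ribosomes, had been sequenced from 2 sporulating SK1 cultures, a yeast background known for efficient sporulation. One carried a deletion of GIM3, a subunit of the prefoldin cochaperone that passes unfolded tubulin and actin to the CCT chaperonin, and the other was wild type (WT). Both had been pre-grown in BYTA, moved to sporulation medium and taken after 4 hours. Values are given in RPM (reads per library of 1000000), and levels compared between genes are RPM per kilobase of coding length.

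There was 1 library for each genotype, so no difference below has a replicate check and no test between genotypes was possible. Intervals are exact 95% intervals that cover counting error only. The gim3 deletion library held 27864644 footprints and the WT library 40433177. GIM3 had 0.108 RPM in the gim3 deletion library, from 3 reads, against 34.9 RPM in WT. Markers of meiotic cells were abundant in the 2 libraries: IME1, SPO11, DMC1, ZIP1 and REC8 lay between 310 and 2395 RPM in the gim3 deletion library and between 297 and 3290 RPM in WT. The G1 cyclins CLN1 and CLN2 and the mating genes FUS1 and STE2 lay between 1.00 and 7.72 RPM in the gim3 deletion library and between 0.495 and 5.27 RPM in WT. These are bulk cultures, so that more cells of a stage and more footprints per cell cannot be told apart, and footprints alone do not divide a difference into mRNA level and translation.

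All 10 genes passed the filter of a mean of 10 RPM, which 4916 genes passed. ADY4 was under 10 RPM in WT and passed through its level in the gim3 deletion library. A rule of size counted genes at least 2-fold apart on the scale of log2(RPM + 1). It called 6 of the 10 genes higher in the gim3 deletion library, none lower (0 of 10) and left 4 within 2-fold. Over all compared genes the same rule called 6.35% higher and 8.5% lower, or 8.3% and 5.21% after centring on the median gene, with the count of the 10 genes still 6 and 0. The median log2 ratio of the 10 genes was 1.91, against -0.20 for all compared genes. In an exact binomial comparison of the 2 libraries, which does not compare genotypes, 7 of the 10 were higher and 2 lower at a Benjamini-Hochberg threshold of 0.05, where 30.1% and 58.1% of all compared genes were called. The 10 genes together took 0.448% of the footprints in the gim3 deletion library (0.446 to 0.450) and 0.0957% in WT (0.0948 to 0.0967), a ratio of 4.68. The net difference was 3523 RPM, of which SPO21 alone made up 43.5%, SPO74 and CNM67 15.8% each and SPC42 14.4%.

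**Figure D1:**
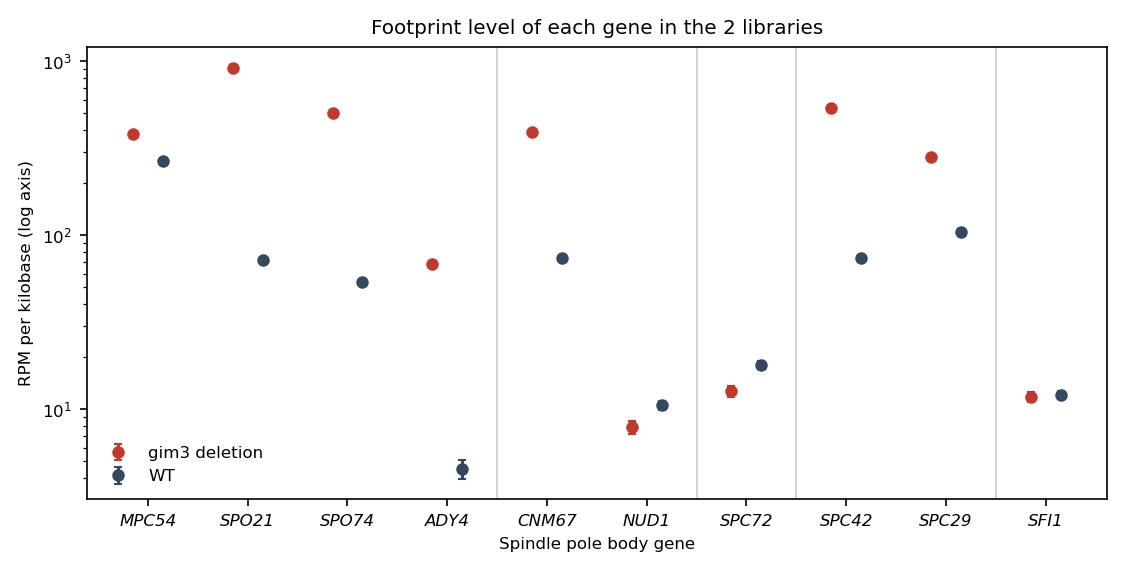
Footprint level of the 10 genes in RPM per kilobase on a log axis, with the gim3 deletion library in red and WT in dark blue. Bars are exact 95% counting intervals, and vertical lines divide the meiosis-specific outer plaque, CNM67 and NUD1, SPC72, the core, and SFI1. SPO21, SPO74, ADY4, CNM67, SPC42 and SPC29 stand well above WT, whereas NUD1, SPC72 and SFI1 are low in either library.

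In the meiosis-specific outer plaque, 3 of the 4 genes were called higher in the gim3 deletion library, against 6.35% of all compared genes. The other was within 2-fold. SPO21, also called MPC70, a coiled-coil scaffold of the meiotic plaque, had 1663 RPM in the gim3 deletion library and 132 RPM in WT. This was a 12.6-fold higher level (12.2 to 13.0), and placed the ratio 34th from the top of the 4916 compared genes. SPO74, another structural component of the plaque, had 622 RPM in the gim3 deletion library and 66.4 RPM in WT, 9.38-fold higher (9.0 to 9.77). ADY4, a component that helps to hold the plaque together, had 102 RPM in the gim3 deletion library and 6.68 RPM in WT. It had the highest ratio of the 10 genes, 15.2-fold (13.4 to 17.3), from 2832 reads in the gim3 deletion library and 270 in WT.

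MPC54, the remaining scaffold of the meiotic plaque, was higher in the gim3 deletion library by a smaller amount. It had 532 RPM in the gim3 deletion library and 369 RPM in WT, a ratio of 1.44 (1.41 to 1.47) that lay inside the 2-fold rule. Its log2 ratio of 0.53 became 0.73 once centred on the median gene. The interval of MPC54 stood apart from those of SPO21, SPO74 and ADY4, the lowest of which began at 9.0. At 265 RPM per kilobase MPC54 was the most abundant of the 10 genes in WT, above 87.6% of all compared genes. The other 3 had 72.1 (SPO21), 53.4 (SPO74) and 4.51 (ADY4) RPM per kilobase there.

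The balance among the 4 meiosis-specific genes therefore differed between the libraries. Of their summed level per kilobase, MPC54 made up 20.5% in the gim3 deletion library and 67.0% in WT. SPO21 made up 48.9% in the gim3 deletion library and 18.3% in WT. SPO74 held 26.9% in the gim3 deletion library and 13.5% in WT, and ADY4 3.69% in the gim3 deletion library and 1.14% in WT. Set directly against each other per kilobase, SPO21 stood at 2.38 times MPC54 in the gim3 deletion library (2.34 to 2.43) and at 0.273 times MPC54 in WT (0.264 to 0.281). SPO74 stood at 1.31 times MPC54 in the gim3 deletion library (1.28 to 1.34) and at 0.202 times in WT (0.194 to 0.210). The intervals of each pair did not overlap between the libraries, so the order of the scaffolds was turned round by more than counting error.

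**Figure D2:**
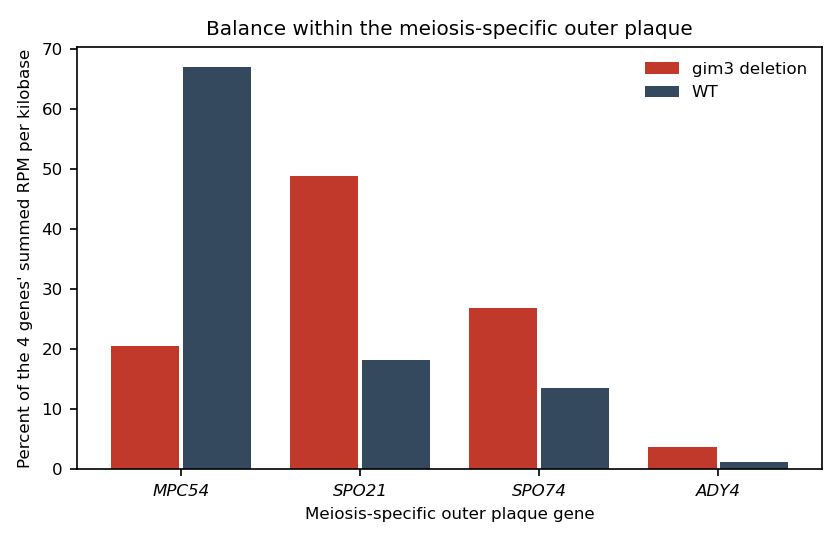
Share of the summed RPM per kilobase of the 4 meiosis-specific outer plaque genes, in percent, in the gim3 deletion library (red) and WT (dark blue), with 1 library per bar. MPC54 makes up 20.5% in the gim3 deletion library and 67.0% in WT, and SPO21 48.9% in the gim3 deletion library and 18.3% in WT.

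The outer plaque genes used in mitosis were divided. CNM67 encodes the spacer that ties the core to the outer plaque and is needed in mitosis and in meiosis. It had 683 RPM in the gim3 deletion library and 128 RPM in WT, 5.34-fold higher (5.17 to 5.50). NUD1, the scaffold next to it, which also carries the mitotic exit network, had 20.1 RPM in the gim3 deletion library and 26.8 RPM in WT, 1.34-fold lower (1.20 to 1.48). SPC72, the receptor that docks the gamma-tubulin complex on the mitotic outer plaque, had 23.6 RPM in the gim3 deletion library and 33.6 RPM in WT, 1.42-fold lower (1.30 to 1.57).

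NUD1 and SPC72 were within 2-fold, their intervals overlapped each other, and after centring on the median gene their log2 ratios were -0.20 and -0.29. They were also among the scarcer messages in footprints: NUD1 had 7.86 RPM per kilobase in the gim3 deletion library and 10.5 in WT, and SPC72 12.6 in the gim3 deletion library and 18.0 in WT. CNM67 and NUD1 bind each other in the plaque, and the level of CNM67 per kilobase was 49.8 times that of NUD1 in the gim3 deletion library (45.8 to 54.2) and 6.99 times in WT (6.54 to 7.47). MPC54 belongs to the meiosis-specific proteins that take the place of SPC72 in the meiotic plaque. Its level per kilobase was 30.2 times that of SPC72 in the gim3 deletion library (27.9 to 32.7) and 14.7 times in WT (13.9 to 15.6). SPO21, also among these proteins, had 909 RPM per kilobase in the gim3 deletion library and 72.1 in WT.

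The 2 core genes were higher in the gim3 deletion library, by unequal amounts. SPC42, whose protein forms the crystalline layer of the core, had 588 RPM in the gim3 deletion library and 80.8 RPM in WT, 7.28-fold higher (7.01 to 7.56). SPC29, which links that layer to the inner plaque, had 213 RPM in the gim3 deletion library and 79.7 RPM in WT, 2.67-fold higher (2.56 to 2.79). Per kilobase SPC42 was above SPC29 in the gim3 deletion library, at 1.93 times its level (1.87 to 1.99), and below it in WT, at 0.707 times (0.674 to 0.743). SPC42 and CNM67, which bind each other, were close in WT, where CNM67 stood at 0.992 times SPC42 (0.949 to 1.04), and CNM67 stood at 0.727 times SPC42 in the gim3 deletion library (0.712 to 0.742).

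SFI1, the long centrin-binding protein of the half-bridge, was nearly level. It had 33.3 RPM in the gim3 deletion library and 34.0 RPM in WT, a ratio of 0.978 whose interval (0.899 to 1.06) held 1. Its log2 ratio of -0.03 became 0.17 once centred on the median gene, so that no direction can be given.

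**Figure D3:**
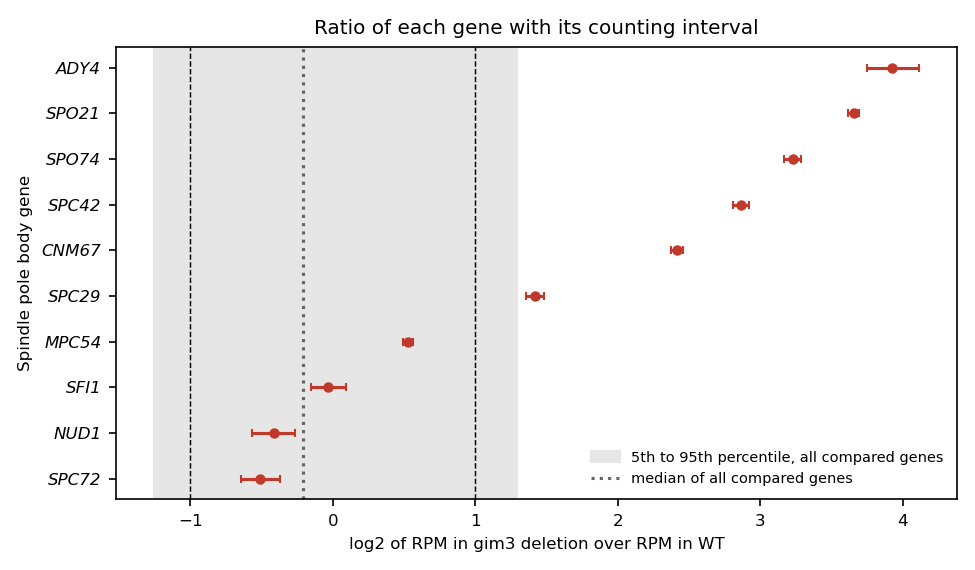
Ratio of gim3 deletion over WT for each of the 10 genes on the log2 scale, without a pseudocount, with exact 95% counting intervals. The grey band spans the 5th to 95th percentile of all compared genes, the dotted line is their median and the dashed lines mark 2-fold. ADY4, SPO21, SPO74, SPC42, CNM67 and SPC29 lie to the right of the band, and MPC54, SFI1, NUD1 and SPC72 lie inside it.

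Ordered by level per kilobase, the genes held different places in the libraries. In the gim3 deletion library SPO21 was highest at 909 RPM per kilobase, followed by SPC42 at 538 and SPO74 at 501. CNM67 and MPC54 came next at 391 and 381 and could not be separated by their counting intervals. SPC29 (279) and ADY4 (68.6) followed, and SPC72 (12.6), SFI1 (11.7) and NUD1 (7.86) were last, with SPC72 and SFI1 not separated. In WT, MPC54 led at 265 RPM per kilobase and SPC29 came next at 105. SPC42 at 74.0, CNM67 at 73.4 and SPO21 at 72.1 formed a run in which neighbours could not be separated. Below SPO74 at 53.4 stood SPC72 (18.0), SFI1 (12.0), NUD1 (10.5) and ADY4 (4.51), each apart from the next. The median compared gene had 47.0 RPM per kilobase in the gim3 deletion library and 53.0 in WT. ADY4 was above that median in the gim3 deletion library and far below it in WT, while SPC72, SFI1 and NUD1 were below it in each.

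Ordered by ratio, neighbouring genes were separated by their intervals from ADY4 down to NUD1, and NUD1 and SPC72 overlapped. None of the 10 genes overlaps another gene in the R64 annotation. Their 17 compared neighbours on the chromosomes had a median log2 ratio of -0.30 and ran from -1.04 to 0.51, with 0 of them called higher and 1 lower, against the shares of 6.35% and 8.5% over all compared genes. SPC42 lies between PHD1 and VPS24, which had log2 ratios of -1.04 and 0.11 and were named after their values were seen.

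**Figure D4:**
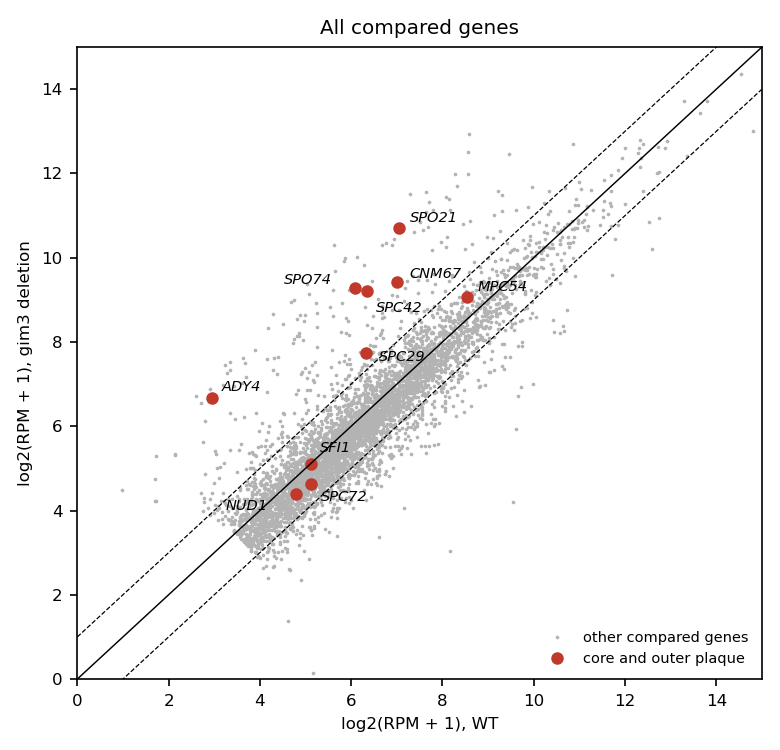
Level of the 4916 compared genes as log2(RPM + 1), with the gim3 deletion library on the vertical axis and WT on the horizontal axis, and the 10 genes in red. The solid line marks equal levels and the dashed lines 2-fold. SPO21, SPO74, ADY4, CNM67, SPC42 and SPC29 lie above the upper dashed line.

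Other layers of the pole body were mostly within 2-fold, as were most compared genes (6.35% called higher and 8.5% lower). No test of a difference from the core and outer plaque was possible. In the list of the inner plaque and the gamma-tubulin complex, 0 of 5 genes were beyond 2-fold and the median log2 ratio was 0.09. It ran from TUB4, gamma-tubulin, at 39.0 RPM in the gim3 deletion library and 62.1 RPM in WT, to SPC110, the inner plaque receptor, at 294 RPM in the gim3 deletion library and 216 RPM in WT. SPC29 and SPC110, which bind each other, thus had ratios of 2.67 and 1.36. Among half-bridge and membrane anchor genes, 1 of the 6 that passed the filter was called higher, with a median of -0.09. That gene was BBP1, which anchors the core in the envelope, at 34.2 RPM in the gim3 deletion library and 8.33 RPM in WT, 4.10-fold higher (3.62 to 4.66). It passed the filter through the gim3 deletion library. MPS3, a membrane protein of the half-bridge, was the lowest at 223 RPM in the gim3 deletion library and 341 RPM in WT. Its counting interval overlapped that of another gene in the list, so the lowest place was not separated. KAR1, at 12.1 RPM in the gim3 deletion library and 4.65 RPM in WT, did not pass the filter.

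Genes of the prospore membrane itself differed in the direction of SPO21, SPO74 and ADY4. In the list of prospore membrane start and leading edge genes, 9 of the 9 that passed were called higher, against 6.35% of all compared genes. Their median log2 ratio was 3.41. The list was written with earlier results of these data known, so its count is not independent support. IRC10 and SMA2, at 9.15 and 5.05 RPM in WT, passed only through the gim3 deletion library. SPO20, a membrane fusion protein, did not pass, at 9.91 RPM in the gim3 deletion library and 1.93 RPM in WT. PFS1, which acts in prospore formation, was highest at 660 RPM in the gim3 deletion library and 31.7 RPM in WT, 20.8-fold (19.7 to 22.1). SPO71, which acts in the shaping of the prospore membrane, was lowest at 273 RPM in the gim3 deletion library and 91.7 RPM in WT, 2.98-fold (2.87 to 3.10). The top place was not separated, since SMA2, which acts in prospore membrane assembly, was 20.8-fold higher with an interval (18.0 to 24.1) that held that of PFS1. MPC54, at 1.44-fold, was below all 9.

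The partners of the mitotic outer plaque were mostly within 2-fold, as were most compared genes (6.35% called higher and 8.5% lower). In the list of the mitotic exit network, which NUD1 carries, 1 of 9 genes was higher, 0 were lower and the median log2 ratio was -0.21. MOB1, the activating subunit of the Dbf2 kinase, was the highest at 161 RPM in the gim3 deletion library and 73.4 RPM in WT, 2.19-fold (2.09 to 2.29). LTE1, a regulator of the Tem1 GTPase, was the lowest at 15.7 RPM in the gim3 deletion library and 23.2 RPM in WT. The lowest place was not separated, since the interval of LTE1 overlapped those of other genes in the list. In the list of cytoplasmic microtubule partners, 1 of 7 was higher, 0 were lower and the median was -0.20. That gene was STU2, a microtubule polymerase that binds SPC72, at 753 RPM in the gim3 deletion library and 177 RPM in WT, 4.25-fold (4.13 to 4.36). BIK1, a microtubule plus-end protein, was the lowest at 16.9 RPM in the gim3 deletion library and 27.6 RPM in WT. Here too the interval of the lowest gene overlapped those of other genes in the list. Relative to the median of all compared genes the medians of these 2 lists were -0.01 and 0.01.

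Regulators of pole body duplication and of middle meiosis were largely on the higher side too. In that list 5 of the 7 that passed were called higher and 0 lower, against 6.35% and 8.5% of all compared genes. The median log2 ratio was 2.39, and the list was written with earlier results of these data known. CDC28 was within 2-fold, at 1.30-fold (1.26 to 1.34). CLB3 did not pass the filter, at 6.82 RPM in the gim3 deletion library and 5.69 RPM in WT. NDT80, the transcription factor of the middle meiotic programme, had 1429 RPM in the gim3 deletion library and 272 RPM in WT, and CLB1, an M-phase cyclin and the highest of the list, 561 RPM in the gim3 deletion library and 32.9 RPM in WT. MPS1, a kinase needed to duplicate the pole body, was 3.72-fold higher (3.58 to 3.87). CDC5 and CLB4 were also higher, and SUM1, a repressor of middle meiotic genes, was the lowest at 24.5 RPM in the gim3 deletion library and 33.4 RPM in WT. IRC10, SMA2, SPO20, KAR1, NDT80, MPS1, CDC5, CLB4, CDC28 and CLB3 were named after their values were seen. The part of these regulators in the values of the 10 genes was not tested.

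**Figure D5:**
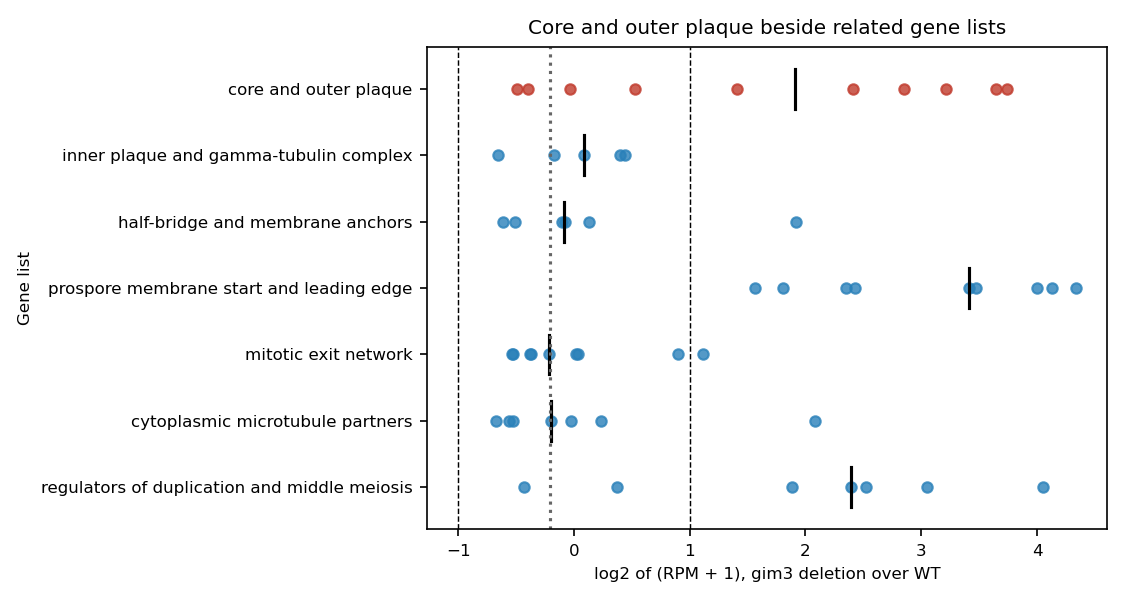
Log2 ratio of gim3 deletion over WT after adding 1 RPM, for the 10 core and outer plaque genes (red) and 6 related lists (blue), with each point a gene that passed the filter. Short black bars are list medians, dashed lines mark 2-fold and the dotted line is the median of all compared genes. The core and outer plaque genes spread from -0.49 to 3.74, the inner plaque genes stay within 2-fold, and all 9 prospore membrane genes lie to the right of the right-hand dashed line.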

How the data were processed

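The authors deposited 1 table of ribosome footprints with a value per gene for each library. Its unit was found from the values: the columns the authors deposited sum to 1000000, so they are RPM, not divided by length. All values (100% in each library) were whole multiples of the smallest within 0.001 of a read, which gave back the read numbers. The submitters' processing notes name SAMtools, STAR and Bowtie2. The build, the versions and the counting rules are not given in the sources used for this work. Lines with no gene name (86 of 6678) held 0.124% of gim3 deletion reads and 0.121% of WT reads and were left out.

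The 10 genes were taken by name. Log2 ratios are gim3 deletion over WT after adding 1 RPM, so that differences of scarce genes come out too small. Folds are plain ratios of RPM with Clopper-Pearson 95% intervals on the division of reads, and intervals of levels are exact Poisson ones. Intervals cover counting error only and treat reads as independent. PCR copies could not be told apart in the deposited values, so the intervals can be too narrow. Lengths, systematic names and gene order came from the R64 RefSeq table (99.3% of compared genes matched). The rule for named genes took the 10 genes, the highest and lowest gene of each related list, GIM3 and 9 markers of cell state. Genes and lists were chosen with earlier results of these data known. A count model with replicate spread was not run, since there are no replicates, and promoter motifs were not analysed here. Calculations were tested on simulated data. Versions were SciPy 1.17.1, statsmodels 0.14.6, pandas 2.3.3, numpy 2.4.6 and matplotlib 3.10.9 under Python 3.11.15. Alternatives are given in the closing section.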

Additional observations from a re-analysis of the deposited data

How the results depend on the processing

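The count of higher genes among the 10 was also 6 under both other pseudocounts, both other filters, all 3 other scalings, removal of a trend on gene length and a 1.5-fold rule, and was 5 under a 3-fold rule, where SPC29 fell inside. The count at least 2-fold lower was 0 in these settings. The exact binomial comparison of reads, which has no rule of size, called 7 higher and 2 lower, NUD1 and SPC72, which are within 2-fold. The median log2 ratio of the 10 genes was 1.82 with a pseudocount of 10 RPM, 2.85 with a filter at a mean of 50 RPM (which leaves out NUD1, SPC72 and SFI1), 2.11 once centred on the median gene and 2.10 with trimmed mean scaling, and the mean was 1.69. Centring raises every log2 ratio by 0.20 and the trimmed mean by 0.19. ADY4, the scarcest in WT, had a log2 ratio of 2.74 with a pseudocount of 10 RPM and 3.95 once centred. Over all compared genes 312 were higher and 418 lower. These became 588 and 1110 with a 1.5-fold rule, 180 and 119 with a 3-fold rule, and 1478 and 2855 in the binomial comparison. Lower genes were 263 with a pseudocount of 10 RPM, 253 with a filter at 50 RPM, 256 once centred (408 higher) and 262 with the trimmed mean (400 higher). In the related lists, 17 genes were higher and 0 lower, and 3 were lower with a 1.5-fold rule. Of the 17, the prospore membrane list held 9 of 9 compared genes and the regulators 5 of 7. The others were 1 of 6 half-bridge, 1 of 9 mitotic exit and 1 of 7 microtubule genes, with 0 of 5 in the inner plaque. Over all compared genes 6.35% were higher and 8.5% lower by the 2-fold rule. Without division by length, 6 of the 10 genes kept their place in the order of levels in the gim3 deletion library and 4 in WT. Where no cause is named, the cause was not tested. No paired analysis was possible because each genotype has 1 library, and leaving out a replicate was not possible for the same reason. ADY4, with 270 reads in WT, had the widest counting interval of the 10 genes.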
